A study of Mus musculus with 32 samples.

Results

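The collagen genes expressed in mouse sciatic nerve were followed across 4 genotypes. They were taken as every gene whose symbol has the form Col, a type number, a and a chain number, and that was counted in at least 8 of the 32 libraries. Of the 44 symbols of that form, 43 met the second condition, out of 45706 genes in the table, and Col10a1 did not, with counts above 0 in 6 libraries. All 43 are collagen chains by name, so the rule used no measured difference between the groups. By class they were 11 chains of fibrillar collagens, 9 of basement membrane and its border (6 of type IV, with types VII, XV and XVIII), 9 of fibril-associated collagens, 6 of the beaded-filament collagen VI, 2 of the network-forming collagen VIII, 4 of transmembrane collagens, and types XXVI and XXVIII. The low-count filter kept 41 of the 43, and Col9a1 and Col25a1 were not tested.

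Collagens are secreted as triple helices of alpha chains, and some chains find a place only in a helix with their partners. In peripheral nerve, fibroblasts of the epineurium and endoneurium make the fibrillar collagens I and III, which surround the axon units, and Schwann cells lay down a basal lamina with a network of collagen IV. Vessels and the perineurium have basement membranes of their own, and collagen VI and the multiplexins XV and XVIII lie at the border between basement membrane and fibrils.

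The study asks whether SIPA1L2 modifies Charcot-Marie-Tooth disease type 1A, a demyelinating neuropathy caused by an extra copy of PMP22. All mice were 6 months old. There were 7 wild-type (WT) nerves, 9 from mice labelled Sipa1l2-/-, 8 from mice labelled C3-PMP22, and 8 labelled C3-PMP22 Sipa1l2-/- (called double mutants here). C3-PMP22 is a transgenic line with extra human PMP22. The labels do not give the Sipa1l2 allele, the strain background or how many nerves or mice went into a library, so the p-values measure the spread between these libraries.

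Library totals ran from 11030976 to 16990990 counts (median 13260286), and the group medians lay between 12810287 for C3-PMP22 and 13520308 for the double mutants. Sipa1l2 itself was not lower in the libraries labelled Sipa1l2-/-. On the scale of counts scaled to library size (CPM), WT libraries had 82.8 ± 20.3 (mean ± SD, n = 7), Sipa1l2-/- libraries 88.8 ± 28.5 (n = 9), C3-PMP22 libraries 90.01 ± 25.3 (n = 8) and double mutants 85.9 ± 40.7 (n = 8), so the Sipa1l2 labels below are given as labels only. The human transgene is not a row of this mouse gene table. Sex-linked genes matched the labelled sex in 30 of 32 libraries, and C3-PMP22 libraries 7 and 8, labelled female, did not match. Of the column identifiers, 19 begin with a plain number and 13 with a leading G (called the plain and G series here). No source used here gives the meaning of either. All 5 female double mutants were plain and all 3 males G, so in that group sex and number series cannot be told apart.

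Short stretches of the genes on which the results turn are shown first, because the type IV pair starts head to head and because Col8a2, Col15a1 and Col7a1 were among the chains that differed most between transgenic and non-transgenic nerves. In GRCm38, Col4a1 (ENSMUSG00000031502, chromosome 8, 11198423 to 11312826, minus strand) and Col4a2 (ENSMUSG00000031503, chromosome 8, 11312805 to 11449287, plus strand) run away from each other, and their first exons share 22 bases, in capitals in the window chr8:11312801-11312830 read on the plus strand.
Col4a1 and Col4a2 shared start: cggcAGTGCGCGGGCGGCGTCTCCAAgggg
The other windows are the 250 bases before the RefSeq start of the gene (GRCm38.p6), with GC boxes (GGGCGG or CCGCCC) and CCAAT boxes (CCAAT or ATTGG) in capitals. Col8a2 (ENSMUSG00000056174) lies on chromosome 4, 126286793 to 126314330, plus strand, and its window is chr4:126286544-126286793.
Col8a2 promoter: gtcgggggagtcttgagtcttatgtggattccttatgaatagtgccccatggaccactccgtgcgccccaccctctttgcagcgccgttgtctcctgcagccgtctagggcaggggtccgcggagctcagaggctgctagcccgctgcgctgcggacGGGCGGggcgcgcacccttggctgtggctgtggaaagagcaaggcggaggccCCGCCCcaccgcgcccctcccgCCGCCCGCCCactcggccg
Col15a1 (ENSMUSG00000028339) lies on chromosome 4, 47208161 to 47313167, plus strand, and its window is chr4:47207762-47208011.
Col15a1 promoter: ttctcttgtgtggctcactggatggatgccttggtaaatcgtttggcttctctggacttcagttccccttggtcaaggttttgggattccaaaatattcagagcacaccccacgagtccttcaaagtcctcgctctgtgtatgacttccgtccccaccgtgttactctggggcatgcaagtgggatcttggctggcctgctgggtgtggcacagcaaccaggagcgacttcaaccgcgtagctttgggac
Col7a1 (ENSMUSG00000025650) lies on chromosome 9, 108953586 to 108984875, plus strand, and its window is chr9:108953336-108953585.
Col7a1 promoter: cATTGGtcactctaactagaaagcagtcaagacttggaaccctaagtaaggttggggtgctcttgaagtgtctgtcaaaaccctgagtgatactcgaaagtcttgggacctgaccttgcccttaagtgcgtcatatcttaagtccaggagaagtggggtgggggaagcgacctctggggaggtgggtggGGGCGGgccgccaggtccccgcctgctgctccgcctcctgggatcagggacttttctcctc
The Col8a2 window held 4 GC boxes, the Col7a1 window 1 GC box and 1 CCAAT box, and the Col15a1 window none of these letters. Among all 32851 promoter windows of this length in the table, 32.7% held a GC box and 33.9% a CCAAT box. Of the 34 collagens with a window, 21 held a GC box and 12 a CCAAT box. A match here is a description of the letters and not of a site that is bound.

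In WT nerve the most abundant collagen transcripts per length were those of the fibrillar collagens I and III and the type IV pair. On the scale of CPM per kilobase, Col3a1 stood at 193 ± 40.9 (SD, n = 7), Col1a1, the main chain of collagen I, at 186 ± 38.4, and Col4a1 at 163 ± 48.5. These 3 neighbours differed by less than their spread. Col1a2 at 120 ± 24.4, Col4a2 at 119 ± 40.2, Col6a1 at 105 ± 26.6 and Col15a1 at 102 ± 38.4 followed, again within the spread of each other. Col5a3, a collagen V chain whose rat counterpart is made by Schwann cells, was next at 55.8 ± 18.3, above Col5a1 at 38.1 ± 8.56 and Col5a2 at 32.3 ± 4.90. Col28a1, a collagen of peripheral nerve in the mouse, reached 11.2 ± 5.48, and Col8a2 5.61 ± 1.86 against 12.6 ± 2.95 for its partner Col8a1. At the low end Col7a1 (0.383), Col11a2 (0.366) and Col22a1 (0.0737) had rank 35, 37 and 41 of 43.

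**Figure D1:**
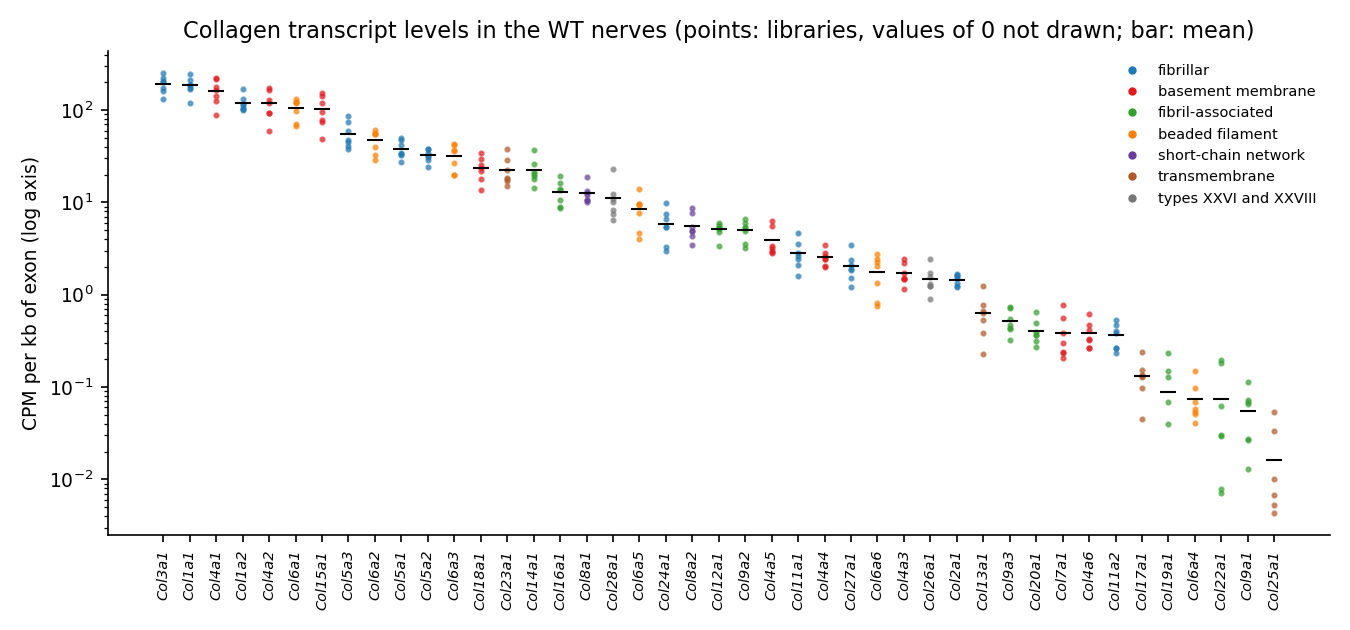
CPM per kilobase (log axis) of each collagen in the 7 WT libraries, in order of the mean and coloured by class; points are libraries, bars are means, and values of 0 are not drawn. Col3a1, Col1a1 and Col4a1 lead at means of 193, 186 and 163, and Col25a1 is lowest at 0.0163.

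All collagen counts together made up 1.13 ± 0.262% of a WT library (SD, n = 7), 0.963 ± 0.240% of a Sipa1l2-/- library (n = 9), 0.799 ± 0.295% of a C3-PMP22 library (n = 8) and 0.849 ± 0.121% of a double mutant library (n = 8). The single libraries ran from 0.466% in C3-PMP22 8 to 1.53% in WT 5. Basement membrane chains took 0.307 ± 0.1003% of WT libraries, and 0.227 ± 0.0913%, 0.176 ± 0.0719% and 0.170 ± 0.0210% of Sipa1l2-/-, C3-PMP22 and double mutant libraries. Fibrillar chains took 0.608 ± 0.132% in WT and 0.469 ± 0.186% in C3-PMP22. The shares are of unscaled library totals, so a share also depends on the other RNA in the library. C3-PMP22 7 and 8, at 0.518% and 0.466%, had the highest skeletal muscle scores, 4.58 and 4.14. This score is the mean of the markers' log2 CPM, each centred. The part of muscle RNA in these shares was not tested, and neither were the shares. In bulk nerve RNA, fewer cells of a type and less RNA per cell cannot be told apart.

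The contrast of C3-PMP22 with WT asks what the transgene does to nerve expression. Among collagens, Col8a2, a chain of the network-forming collagen VIII of vessel and corneal matrix, fell. Its CPM ran from 15.6 to 38.8 in WT (median 21.9) and from 8.09 to 15.7 in C3-PMP22 (median 12.4). All 8 C3-PMP22 libraries lay below the WT median and 6 of 8 below the lowest WT library, so the groups met only at the edge. In edgeR's quasi-likelihood fit on all 32 libraries with labelled sex as a term, the log2 fold change was -0.997 ± 0.217 (SE; 95% interval -1.44 to -0.55; adjusted p = 0.0178 with Benjamini-Hochberg adjustment over 15403 genes), or 2.00-fold lower. Col8a2 was the 1 collagen called of 41 tested, against 106 of 15403 genes (0.688%). At an unadjusted p under 0.05 there were 12 of 41 collagens (29.3%) and 18.1% of all genes.

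The basement membrane chains came next in order of p without passing. Col15a1, a multiplexin, had CPM of 312 to 975 in WT (median 608) and 228 to 499 in C3-PMP22 (median 389), a log2 fold change of -0.82 ± 0.20 with adjusted p = 0.0503 in edgeR. Col4a1 had 669 to 1656 CPM in WT (median 1231) and 465 to 1189 in C3-PMP22 (median 680), a log2 fold change of -0.74 ± 0.20 (edgeR adjusted p = 0.0630). Col4a2 had 394 to 1139 CPM in WT (median 787) and 280 to 801 in C3-PMP22 (median 425), a log2 fold change of -0.78 ± 0.21 (edgeR adjusted p = 0.0619). For each of these chains the C3-PMP22 median was near the bottom of the WT range, and the ranges overlapped. Col18a1, the second multiplexin, had a log2 fold change of -0.30 ± 0.16.

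The other chains followed in C3-PMP22 against WT as log2 fold changes, none of them called. The fibrillar chains gave -0.39 ± 0.17 for Col1a1, -0.09 ± 0.12 for Col1a2, -0.32 ± 0.24 for Col3a1, -0.24 ± 0.13 for Col5a1 and -0.61 ± 0.19 for Col5a3. Collagen VI gave -0.48 ± 0.20 for Col6a1 and -0.48 ± 0.23 for Col6a3. The fibril-associated chains of the panel gave 0.07 ± 0.15 for Col12a1, -0.05 ± 0.18 for Col14a1 and 0.18 ± 0.22 for Col20a1, and Col28a1 gave 0.35 ± 0.30. By class, the median log2 fold change was -0.48 for collagen VI (0 of 6 positive), -0.21 for basement membrane (1 of 9 positive), -0.19 for fibrillar chains (3 of 11 positive), -0.40 for transmembrane chains (0 of 3 positive) and 0.23 for fibril-associated chains (6 of 8 positive). The median of the 41 collagens was -0.19, with 12 positive, beside 0.04 for all genes. Scaling by total counts moved the median of all genes to -0.12 and that of the collagens to -0.37. Of all genes called in this contrast 54.7% were higher with TMM scaling, 41.3% with DESeq2 size factors and 27.8% with total counts.

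The number of collagens called in C3-PMP22 against WT depended on single libraries, and the calls over all genes in the same fits are not given here. It was 0 without WT 5, and 2 without each of double mutant 7, C3-PMP22 6, Sipa1l2-/- 3 and Sipa1l2-/- 9. It was 3 without Sipa1l2-/- 7, 4 without each of C3-PMP22 2, C3-PMP22 5 and WT 1, and 5 without WT 3. The Col8a2 call was lost without WT 2 (log2 fold change -0.89, adjusted p = 0.0509 in edgeR) and without WT 5 (-0.87, edgeR adjusted p = 0.0726). It was also lost without both C3-PMP22 7 and 8, at -1.01 ± 0.25 (edgeR adjusted p = 0.0637). The summed level of the 7 endothelial markers was 354 to 577 CPM in C3-PMP22 (median 430) and 480 to 739 in WT (median 537), and all 7 had negative log2 fold changes, median -0.40. With an endothelial score (the mean of the markers' log2 CPM, each centred) as a term, Col8a2 stood at -1.03 ± 0.26 (edgeR adjusted p = 0.0967).

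In the other marker lists 1 gene was called in this contrast. All 6 adipocyte markers were negative (median -0.71), with a summed level of 2544 to 9257 CPM in WT (median 6968) and 1340.0 to 7814 in C3-PMP22 (median 2864). Of the mural markers 6 of 7 were negative (median -0.26), and of the muscle markers 14 of 15 positive (median 1.66). Gfap, an intermediate filament of non-myelinating Schwann cells, was called at 1.47. With an adipocyte score as a term, Col8a2 stood at -1.22 ± 0.21 (edgeR adjusted p = 0.00225), Col15a1 at -0.57 (adjusted p = 0.282), Col4a1 at -0.39 (adjusted p = 0.280) and Col4a2 at -0.42 (adjusted p = 0.297). The column identifiers begin with 12 different numbers, 8 of them shared by several libraries, whose meaning no source used here gives. C3-PMP22 2, 7 and 8, WT 5, 6 and 7, double mutant 8 and Sipa1l2-/- 7 share theirs with no other genotype. With this first part as a term, these libraries do not inform the genotype differences. No collagen was called in that fit (43 of 15403 genes, 0.279%), and Col8a2 stood at -1.08 ± 0.31 (edgeR adjusted p = 0.195).

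**Figure D2:**
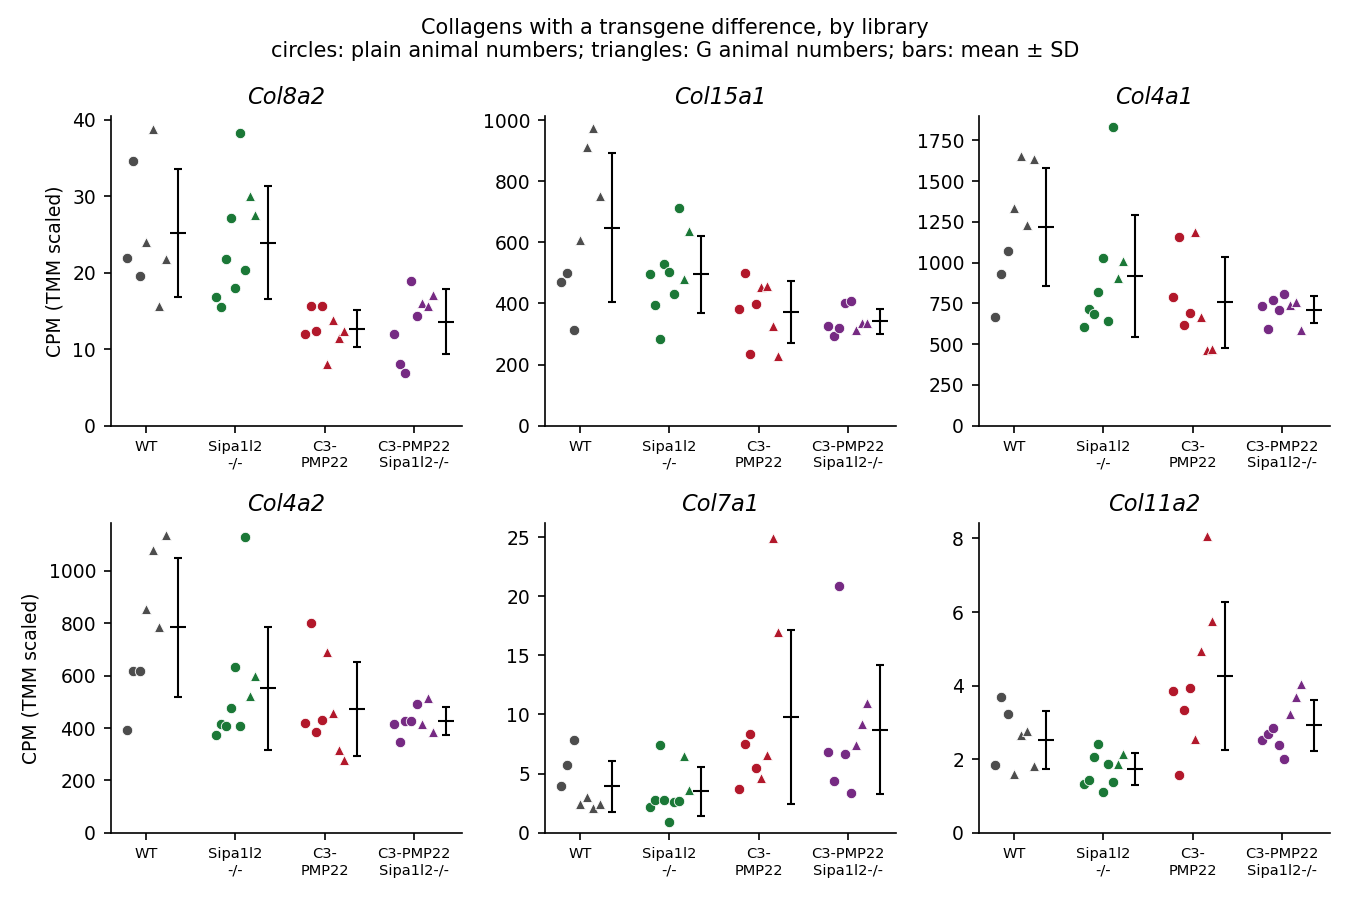
CPM (linear axes from 0) of Col8a2, Col15a1, Col4a1, Col4a2, Col7a1 and Col11a2 in each of the 32 libraries, by genotype. Of the 8 collagens called between transgenic and non-transgenic nerves, Col27a1 and Col22a1 are not drawn. Circles are the plain and triangles the G series of column identifiers, and bars are means with SD. Col8a2 medians are 21.9 (WT), 21.8 (Sipa1l2-/-), 12.4 (C3-PMP22) and 14.9975 (double mutants).

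In the double mutants against WT, Col15a1, Col8a2 and Col4a2 fell, 3 of 41 collagens beside 213 of 15403 genes in either direction (1.38%) and 133 lower (0.863%). Col15a1 ran from 295 to 408 CPM in the double mutants (median 331), below the WT median of 608 in every library, and its log2 fold change was -0.91 ± 0.20 (edgeR adjusted p = 0.0168). Col8a2 ran from 6.92 to 18.9 CPM (median 14.9975) and had a log2 fold change of -0.89 ± 0.22 (edgeR adjusted p = 0.0345). Col4a2 ran from 347 to 514 CPM (median 420.4), also below the WT median of 787 in every library, with -0.82 ± 0.21 (edgeR adjusted p = 0.0408). Col4a1, its partner chain, was at 584 to 809 CPM (median 737) and -0.71 ± 0.20, and did not pass (edgeR adjusted p = 0.0630).

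The rest of the chains in the double mutants were not called against WT. Their log2 fold changes were -0.33 ± 0.17 for Col1a1, -0.15 ± 0.12 for Col1a2, -0.11 ± 0.24 for Col3a1, -0.24 ± 0.13 for Col5a1 and -0.61 ± 0.19 for Col5a3. They were -0.25 ± 0.20 for Col6a1, -0.28 ± 0.23 for Col6a3 and -0.40 ± 0.16 for Col18a1. Col12a1 stood at -0.09 ± 0.15, Col14a1 at 0.22 ± 0.18, Col20a1 at -0.22 ± 0.22 and Col28a1 at 0.28 ± 0.30. The class medians were -0.23 for basement membrane (2 of 9 positive), -0.15 for fibrillar chains (2 of 11 positive), -0.04 for collagen VI (3 of 6 positive) and 0.06 for fibril-associated chains (4 of 8 positive). Over the 41 collagens the median was -0.12, with 14 positive, beside 0.01 for all genes.

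Single libraries also set which chains were called in the double mutants. No collagen was called without WT 5. Only 1 was called without each of double mutants 1, 2 and 3 and WT 2, 4 and 6, and 5 without WT 3. The Col15a1 call was lost without WT 5 (-0.83, edgeR adjusted p = 0.0558) and WT 6 (-0.76, edgeR adjusted p = 0.0724). The Col8a2 call was lost without each of double mutants 1, 2 and 3 and WT 2, 4 and 5, with log2 fold changes of -0.76 to -0.89. The Col4a2 call held in 20 of 32 such fits, and was lost without each of double mutants 1, 2, 3, 4, 6, 7 and 8 and WT 2, 4, 5, 6 and 7. Within the G libraries, 5 collagens were called (Col15a1, Col4a1, Col4a2, Col6a1 and Col6a2) beside 2.77% of all genes, and within the plain libraries 3 others (Col11a1, Col23a1 and Col24a1) beside 5.42%. Col15a1 stood at -1.35 ± 0.28 in the G libraries and at -0.24 ± 0.27 in the plain ones (edgeR adjusted p = 0.684), and Col4a2 at -1.37 ± 0.26 and -0.16 ± 0.29 (adjusted p = 0.836 in the plain ones). Col8a2 stood at -0.68 ± 0.29 (edgeR adjusted p = 0.206) and -1.09 ± 0.32 (adjusted p = 0.0577). With the first part of the column identifier as a term no collagen was called (59 of 15403 genes, 0.383%), and Col15a1 stood at -0.77, Col8a2 at -0.72 and Col4a2 at -0.71. Libraries whose first part occurs in a single genotype again do not inform these values.

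All 7 macrophage markers had positive log2 fold changes in the double mutants against WT (median 0.46), and Aif1, a macrophage calcium-binding protein, rose by 0.77 (edgeR adjusted p = 0.0432). The adipocyte markers were negative in 6 of 6 (median -0.58), the endothelial in 7 of 7 (median -0.15), the mural in 6 of 7 (median -0.30) and the myelinating Schwann markers in 7 of 8 (median -0.42), none called. All 15 muscle markers were positive (median 0.67), none called. With the adipocyte score as a term, Col4a2 stood at -0.50 ± 0.15 (edgeR adjusted p = 0.0522), Col15a1 at -0.70 ± 0.20 (adjusted p = 0.0423), Col8a2 at -1.09 ± 0.21 (adjusted p = 0.00308) and Col4a1 at -0.41 (adjusted p = 0.0783).

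**Figure D3:**
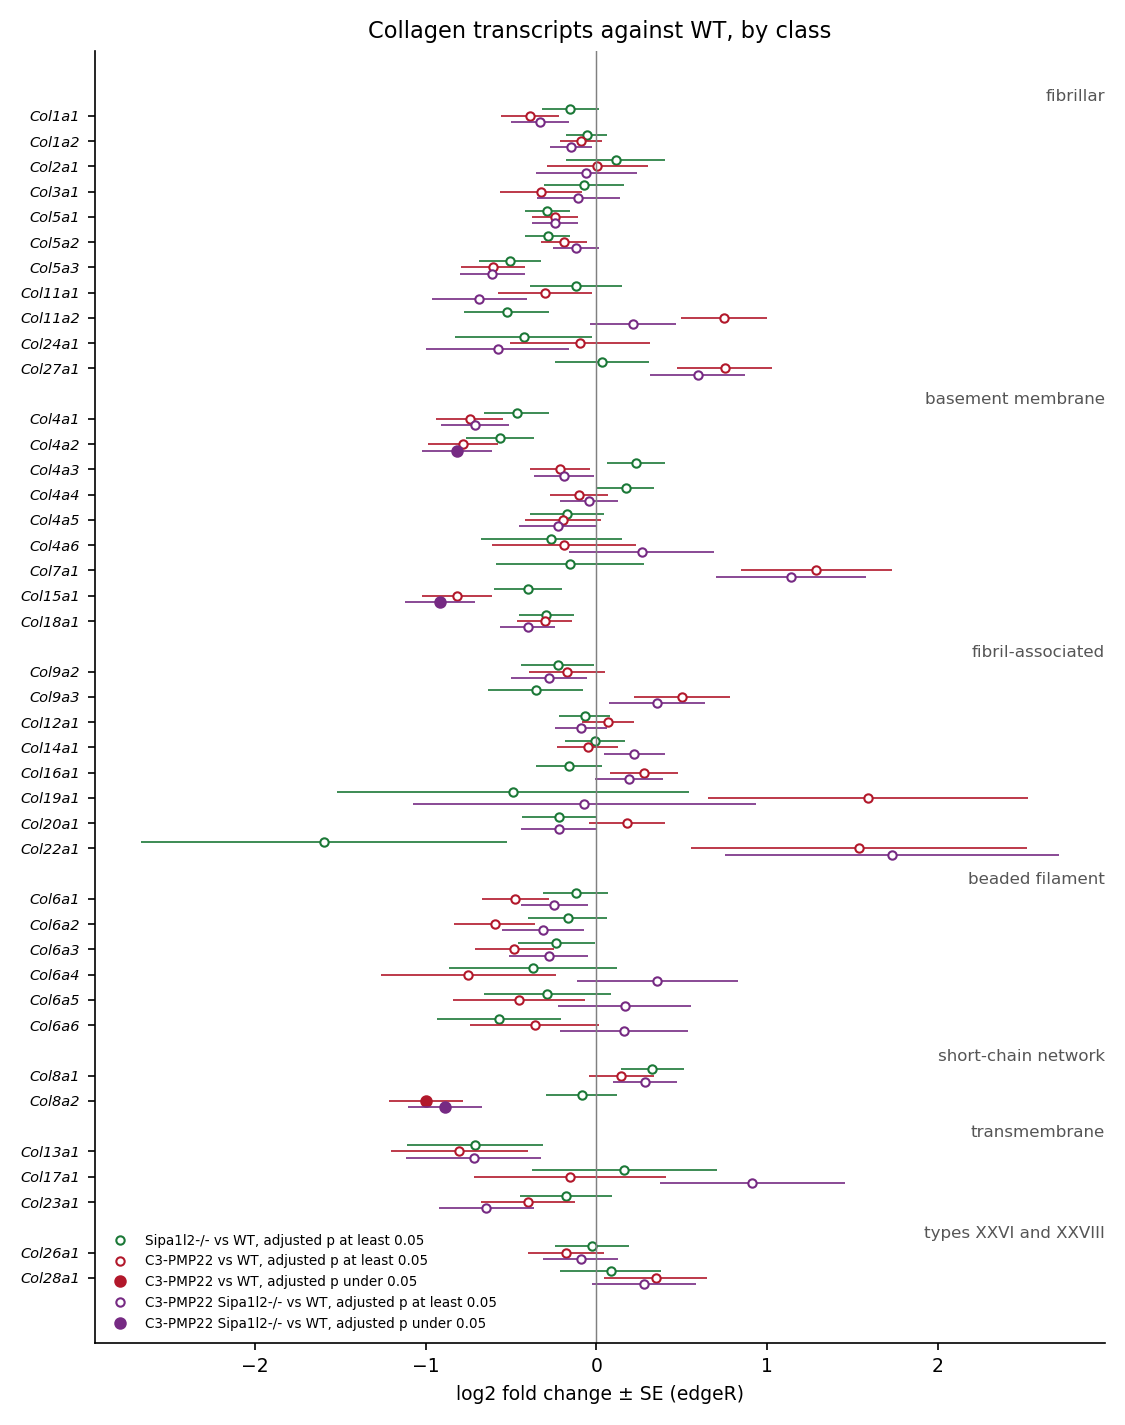
Log2 fold change against WT with its SE for each tested collagen, grouped by class, in Sipa1l2-/-, C3-PMP22 and double mutant nerves. Filled points pass the test: Col8a2 in C3-PMP22 (-0.997), and Col15a1 (-0.91), Col8a2 (-0.89) and Col4a2 (-0.82) in the double mutants.

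Between Sipa1l2-/- and WT no collagen was called by edgeR, and none of all genes (0 of 15403, 0%). DESeq2 also called 0 collagens. At an unadjusted p under 0.05 there were 6 of 41 collagens (14.6%) and 803 of all genes (5.21%). The smallest p-values belonged to Col4a2 (log2 fold change -0.56 ± 0.20, edgeR adjusted p = 0.839), Col5a3 (-0.51 ± 0.18) and Col4a1 (-0.47 ± 0.19). Col4a2 ran from 374 to 1129 CPM in Sipa1l2-/- (median 478) and its range spanned nearly that of WT. Col8a2, with 15.5 to 38.2 CPM (median 21.8), had a log2 fold change of -0.09 ± 0.21. Elsewhere the values were -0.15 ± 0.17 for Col1a1, -0.06 ± 0.12 for Col1a2, -0.07 ± 0.23 for Col3a1, -0.29 ± 0.13 for Col5a1, -0.12 ± 0.19 for Col6a1 and -0.23 ± 0.22 for Col6a3. Col15a1 stood at -0.40 ± 0.20 and Col18a1 at -0.29 ± 0.16, Col12a1 at -0.07 ± 0.15 and Col14a1 at -0.01 ± 0.18. Col20a1 stood at -0.22 ± 0.22 and Col28a1 at 0.08 ± 0.30. The median over the 41 collagens was -0.18, with 7 positive, beside 0.02 for all genes. The 3 contrasts with WT share the WT libraries, so a WT library that is high in a collagen lowers that collagen in each of them.

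Pooling the 16 transgenic libraries (C3-PMP22 and double mutants) against the 16 non-transgenic ones (WT and Sipa1l2-/-) gave 8 collagens called of 41, 4 higher and 4 lower, beside 512 of 15403 genes (3.32%), 243 higher (1.58%) and 269 lower (1.75%). Col8a2, Col15a1, Col4a1 and Col4a2 fell, and Col7a1, Col11a2, Col27a1 and Col22a1 rose. Col22a1 passed the low-count filter mainly through transgenic libraries, so its rise is given as a description only. The 4 that fell include 3 basement membrane chains of high abundance in WT, and the 4 that rose were at or below 2.06 CPM per kilobase there. At an unadjusted p under 0.05 there were 17 of 41 collagens (41.5%) and 17.2% of all genes. The pooled contrast was chosen with earlier results of these data known.

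Col8a2 had the smallest p, with a log2 fold change of -0.90 ± 0.15 (edgeR adjusted p = 0.000329), or 1.87-fold lower. All 16 transgenic libraries lay below the non-transgenic median and 10 below the lowest non-transgenic library. Col15a1 followed at -0.67 ± 0.14 (edgeR adjusted p = 0.00469), again with all 16 transgenic libraries below the non-transgenic median. Col4a1 at -0.49 ± 0.14 (edgeR adjusted p = 0.0376) and Col4a2 at -0.52 ± 0.14 (edgeR adjusted p = 0.0371) each had 14 of 16 transgenic libraries below that median. Sipa1l2-/- 7 carried the highest non-transgenic Col4a1 level, 1829 CPM.

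Of the chains that rose, Col7a1, which forms the anchoring fibrils of skin, ran from 2.10 to 7.88 CPM in WT nerves (median 3.06) and 0.917 to 7.39 in Sipa1l2-/- nerves (median 2.75). C3-PMP22 nerves had 3.73 to 24.95 (median 7.04) and double mutant nerves 3.36 to 20.8 (median 7.11). All 16 transgenic libraries stood above the non-transgenic median, and 6 above the highest non-transgenic library. Its log2 fold change was 1.29 ± 0.31 (edgeR adjusted p = 0.0149), 2.45-fold higher.

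Col11a2, a minor fibrillar chain known from cartilage, ran from 1.61 to 3.70 CPM in WT nerves (median 2.67) and 1.11 to 2.42 in Sipa1l2-/- nerves (median 1.87). C3-PMP22 nerves had 1.57 to 8.06 (median 3.90) and double mutant nerves 2.00 to 4.04 (median 2.76). The double mutant range lay largely inside the WT range, and the lowest group was Sipa1l2-/-. The pooled log2 fold change was 0.74 ± 0.17 (edgeR adjusted p = 0.0130).

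Col27a1, a fibrillar collagen of cartilage and other tissues, ran from 15.98 to 44.8 CPM in WT nerves (median 24.7) and 16.9 to 62.3 in Sipa1l2-/- nerves (median 21.996). C3-PMP22 nerves had 26.3 to 63.5 (median 48.8) and double mutant nerves 21.6 to 73.8 (median 36.5). The ranges overlapped widely, with 14 of 16 transgenic libraries above the non-transgenic median. The log2 fold change was 0.66 ± 0.19 (edgeR adjusted p = 0.0496). This call was kept in 4 of 15 alternatives and in 7 of 32 fits that leave out 1 library, with adjusted p up to 0.359 in edgeR among the alternatives.

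Col22a1, a fibril-associated collagen of myotendinous junctions, ran from 0.0650 to 1.82 CPM in WT nerves (median 0.277) and 0 to 0.823 in Sipa1l2-/- nerves (median 0.120). C3-PMP22 nerves had 0 to 5.94 (median 1.03) and double mutant nerves 0.140 to 11.7 (median 0.388). Of the 16 transgenic libraries 10 lay above the non-transgenic median and 6 above the highest non-transgenic library. The log2 fold change was 2.43 ± 0.69 (edgeR adjusted p = 0.0448). Its counts reached 10, the filter's minimum, in C3-PMP22 1, 2, 7 and 8 and double mutants 2, 3 and 4. Outside the transgenic libraries they did so in WT 3, WT 4 and Sipa1l2-/- 6. Col22a1 was thus tested mainly through the group where it is high, and its p-value is no independent support for a rise. The summed level of the muscle markers also varied widely, from group medians of 3669 CPM (WT) and 3050 (Sipa1l2-/-) to 38287 (C3-PMP22) and 33869 (double mutants), and single libraries from 29.1 to 169748. With the muscle score, made the same way, as a term Col22a1 stood at 1.78 ± 0.65 (edgeR adjusted p = 0.164), and Col4a1 and Col4a2 at -0.39 (adjusted p = 0.0992) and -0.41 (adjusted p = 0.101).

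The remaining chains did not pass in the pooled contrast. Their log2 fold changes were -0.28 ± 0.12 for Col1a1, -0.09 ± 0.08 for Col1a2, -0.18 ± 0.17 for Col3a1, -0.10 ± 0.09 for Col5a1 and -0.35 ± 0.13 for Col5a3. They were -0.30 ± 0.13 for Col6a1, -0.26 ± 0.16 for Col6a3, -0.21 ± 0.11 for Col18a1 and 0.02 ± 0.11 for Col12a1. Col14a1 stood at 0.09 ± 0.12, Col20a1 at 0.09 ± 0.15, and Col28a1 at 0.27 ± 0.21. Col8a1, the partner of Col8a2, had 0.05 (edgeR adjusted p = 0.859), and its median CPM was 94.1 (WT), 117 (Sipa1l2-/-), 111 (C3-PMP22) and 116 (double mutants). The median over the 41 collagens was -0.10, with 15 positive, beside 0.02 for all genes. By class it was 0.20 for fibril-associated chains (7 of 8 positive), -0.10 for fibrillar chains (2 of 11 positive), -0.14 for collagen VI (1 of 6 positive) and -0.21 for basement membrane (2 of 9 positive). The share of higher genes among all called was 47.5% with TMM scaling, 42.1% with DESeq2 size factors and 29.0% with total counts.

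Leaving out libraries 1 at a time, Col8a2, Col15a1, Col7a1 and Col11a2 were called in all 32 fits, Col4a2 in 19, Col4a1 in 18, Col22a1 in 12 and Col27a1 in 7. The count of 8 fell to 4 without each of C3-PMP22 1, C3-PMP22 8, Sipa1l2-/- 7, Sipa1l2-/- 9, WT 5, WT 6 and WT 7. It was 5 without each of double mutants 6 and 8, C3-PMP22 4, C3-PMP22 7 and WT 4. Without both C3-PMP22 7 and 8, the libraries that went against their sex label, 4 were called: Col8a2 (-0.91), Col15a1 (-0.63), Col7a1 (0.97) and Col11a2 (0.57). With the first part of the column identifier as a term 4 were called, beside 231 of 15403 genes (1.4997%): Col8a2 (-0.95), Col15a1 (-0.54), Col4a1 (-0.45) and Col4a2 (-0.45). In that fit Col22a1 stood at 0.08 ± 0.82, Col7a1 at 1.01 ± 0.41, Col11a2 at 0.66 ± 0.19 and Col27a1 at 0.62 ± 0.23. Libraries whose first part occurs in a single genotype do not inform that fit's genotype differences.

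Both labelled sexes gave the same sign for each of the 8. These were called on the same libraries, so equal signs are partly built in and are no further support. How many of all called genes share their sign between the sexes was not counted. In libraries labelled female (9 transgenic, 8 non-transgenic) and male (7 and 8), the mean differences in log2 CPM were -0.95 and -0.77 for Col8a2 and -0.74 and -0.45 for Col15a1. They were -0.43 and -0.47 for Col4a1, -0.45 and -0.47 for Col4a2, and 1.51 and 0.89 for Col7a1. Col11a2 gave 0.76 and 0.63, Col27a1 0.53 and 0.84, and Col22a1 1.18 and 1.33. In double mutants minus WT alone, Col22a1 gave 1.29 in females and -0.09 in males, and the others of the 8 kept their sign. Col27a1 gave 0.01 in females and 1.51 in males there. The 9 transgenic libraries labelled female include C3-PMP22 7 and 8, whose sex-linked genes go against the label. Without them the female differences were -0.96 for Col8a2, -0.67 for Col15a1, -0.30 for Col4a1, -0.34 for Col4a2, 1.17 for Col7a1, 0.49 for Col11a2, 0.54 for Col27a1 and 1.01 for Col22a1.

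The transgene difference was also fitted within the plain and the G series. Fitted on plain and on G libraries alone, Col8a2 had log2 fold changes of -0.88 ± 0.21 (edgeR adjusted p = 0.0433) and -0.98 ± 0.20 (adjusted p = 0.0750). Col15a1 had -0.32 ± 0.17 (adjusted p = 0.491) and -0.98 ± 0.19 (adjusted p = 0.0656), Col4a1 -0.16 ± 0.17 (adjusted p = 0.813) and -0.88 ± 0.19 (adjusted p = 0.0798), and Col4a2 -0.18 ± 0.19 and -0.85 ± 0.18. In WT itself, the adipocyte score was -0.53 to 0.69 in the plain and 1.04 to 1.48 in the G libraries. Col4a1 was at 669 to 1069 CPM in the 3 plain and 1231 to 1656 in the 4 G libraries of WT. Col15a1 was at 312 to 500 and 608 to 975 in the same order. How many of all genes split this way between so few libraries was not counted, so the split is not a result about these chains. The difference of the transgene effect between series (G minus plain) was -0.70 ± 0.27 for Col4a1 (edgeR adjusted p = 0.307), -0.68 ± 0.27 for Col15a1 (adjusted p = 0.316) and -0.10 ± 0.32 for Col8a2 (adjusted p = 0.904). It passed for no collagen and for 0 of 15403 genes in edgeR. An unadjusted p under 0.05 was found for 5 of 41 collagens and 13.7% of all genes.

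Markers of other cell types were read in the pooled contrast. The endothelial markers were lower in 7 of 7 by sign (median log2 fold change -0.29), with Flt1, a VEGF receptor, called at -0.34. The mural cell markers were lower in 6 of 7 (median -0.25), with Acta2, smooth muscle actin, at -0.78 and Notch3, a receptor of mural cells, at -0.53 both called. Fibroblast markers were higher in 8 of 11 tested with none called (median 0.16), and adipocyte markers lower in 6 of 6 with none called (median -0.38). Myelinating Schwann markers had a median of -0.18 with none of 8 called, and muscle markers were positive in 14 of 15 with none called (median 0.81). Macrophage markers were positive in 7 of 7 (median 0.24), with Aif1 called at 0.49. Of the perineurial markers Lypd2 was called at -0.57 (1 of 5), and of the non-myelinating Schwann markers Gfap at 1.51 (1 of 6). With the endothelial score as a term, Col8a2 (-0.93, edgeR adjusted p = 0.0070), Col15a1 (-0.68, adjusted p = 0.0438) and Col27a1 (0.88, adjusted p = 0.0462) were called. Col4a1 stood at -0.31 (edgeR adjusted p = 0.509), Col4a2 at -0.36 (adjusted p = 0.453), Col7a1 at 1.07 (adjusted p = 0.215), Col11a2 at 0.45 (adjusted p = 0.417) and Col22a1 at 2.94 (adjusted p = 0.138). The part of vessel cells in these values was not tested.

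The double mutants against C3-PMP22 ask whether the Sipa1l2 label changes collagens on the transgenic background. No collagen was called by edgeR, and 0 of 15403 genes (0%). DESeq2 called 0 collagens too. At an unadjusted p under 0.05 there were 2 of 41 collagens (4.88%) and 8.07% of all genes. The smallest p-values were those of Col6a4 (log2 fold change 1.11 ± 0.49), Col11a2 (-0.53 ± 0.24) and Col17a1 (1.07 ± 0.54), each with an edgeR adjusted p of 0.606. Double mutant 3 was far above the double mutant median in Col17a1 (8.01 against 0.653 CPM) and Col6a4 (2.33 against 0.608 CPM), both chains of few counts. Col4a1 stood at 0.03 ± 0.19, Col4a2 at -0.04 ± 0.20, Col15a1 at -0.10 ± 0.20, Col18a1 at -0.10 ± 0.16 and Col8a2 at 0.11. The fibrillar chains stood at 0.06 ± 0.17 for Col1a1, -0.06 ± 0.12 for Col1a2, 0.22 ± 0.24 for Col3a1, -0.00 ± 0.13 for Col5a1 and -0.00 ± 0.18 for Col5a3. The values were 0.23 ± 0.19 for Col6a1, 0.20 ± 0.23 for Col6a3, -0.16 ± 0.15 for Col12a1, 0.27 ± 0.18 for Col14a1, -0.40 ± 0.22 for Col20a1 and -0.07 ± 0.29 for Col28a1. All 6 collagen VI chains were positive (median 0.40). The median over the 41 collagens was -0.00, beside -0.05 for all genes, and turned to 0.11 with total counts and 0.02 with DESeq2 size factors.

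Against Sipa1l2-/-, the double mutants had no collagen called by edgeR, beside 111 of 15403 genes (0.721%). DESeq2 called 2 collagens, beside 219 of all genes (1.42%), and 9 of 41 (21.95%) had an unadjusted p under 0.05, as did 8.69% of all genes. Col8a2 had the smallest p, with 6.92 to 18.9 CPM in the double mutants and 15.5 to 38.2 in Sipa1l2-/-, a log2 fold change of -0.80 ± 0.21 (edgeR adjusted p = 0.0596). Col22a1 at 3.33 ± 1.02 (adjusted p = 0.158) and Col7a1 at 1.29 ± 0.42 (adjusted p = 0.198) followed in edgeR. In edgeR 1 collagen was called when each of double mutant 4, Sipa1l2-/- 2 and Sipa1l2-/- 5 was left out. The panel of abundant chains stood at -0.18 ± 0.16 for Col1a1, -0.09 ± 0.12 for Col1a2, -0.03 ± 0.23 for Col3a1, 0.04 ± 0.13 for Col5a1 and -0.10 ± 0.18 for Col5a3. It stood at -0.24 ± 0.19 for Col4a1, -0.25 ± 0.20 for Col4a2, -0.51 ± 0.19 for Col15a1 and -0.11 ± 0.15 for Col18a1. Col6a1 was at -0.13 ± 0.19, Col6a3 at -0.05 ± 0.22, Col12a1 at -0.02 ± 0.15, Col14a1 at 0.23 ± 0.17, Col20a1 at 0.00 ± 0.23 and Col28a1 at 0.20 ± 0.28. The median over the 41 collagens was -0.04, beside -0.01 for all genes.

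The interaction of transgene and Sipa1l2 label tests whether the transgene difference depends on that label. It was called for no collagen by edgeR or DESeq2, and for 0 of 15403 genes (0%) in edgeR. At an unadjusted p under 0.05 there was 1 of 41 collagens (2.44%) and 6.41% of all genes. The smallest p-values were those of Col6a4 (1.48 ± 0.71), Col6a6 (1.09 ± 0.54) and Col5a3 (0.50 ± 0.26), each with an edgeR adjusted p of 0.700. Col6a4 is a chain of few counts, with its highest level in double mutant 3 (2.33 CPM). Col8a2 was at 0.20 (edgeR adjusted p = 0.850). The interaction values of the type IV and multiplexin chains were 0.50 ± 0.27 for Col4a1, 0.53 ± 0.29 for Col4a2, 0.30 ± 0.28 for Col15a1 and 0.19 ± 0.22 for Col18a1. Among the fibrillar chains they were 0.21 ± 0.24 for Col1a1, -0.00 ± 0.17 for Col1a2, 0.29 ± 0.34 for Col3a1 and 0.28 ± 0.19 for Col5a1. Col6a1 was at 0.35 ± 0.27, Col6a3 at 0.44 ± 0.32, Col12a1 at -0.09 ± 0.21, Col14a1 at 0.28 ± 0.25, Col20a1 at -0.18 ± 0.31 and Col28a1 at -0.15 ± 0.41. All 6 collagen VI chains were positive (median 0.68), and the collagen median was 0.20 beside -0.06 for all genes, which total-count scaling moved to 0.35 and 0.11.

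A list of 55 genes of collagen synthesis, cross-linking, binding and breakdown, of which 53 were tested, was read beside the chains. In the pooled contrast 3 of 53 were called, beside 3.32% of all genes. Lox, the enzyme that cross-links collagen fibrils, ran from 169 to 388 CPM in WT nerves (median 287) and 151 to 394 in Sipa1l2-/- nerves (median 260). C3-PMP22 nerves had 122 to 292 (median 174) and double mutant nerves 84.6 to 234 (median 137), a fall of Lox with a log2 fold change of -0.73 ± 0.12 (edgeR adjusted p = 0.000443). Lair1, an inhibitory collagen receptor of immune cells, rose by 0.89 ± 0.15 (edgeR adjusted p = 0.000472), and its median CPM was 3.33 (WT), 5.30 (Sipa1l2-/-), 7.16 (C3-PMP22) and 8.90 (double mutants). Itga10, the alpha chain of a collagen-binding integrin, rose by 0.77 ± 0.15 (edgeR adjusted p = 0.00307), with median CPM of 3.05, 2.62, 4.75 and 5.21 in the same order.

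In the single contrasts the calls from the list are given beside the share of all genes called. C3-PMP22 against WT had Lair1 alone, beside 0.688% (1.02 ± 0.23, edgeR adjusted p = 0.0197). The double mutants against WT had 4, beside 1.38%: Lair1 (1.20 ± 0.22), Lox (-0.89 ± 0.18), Plod2, the hydroxylase of collagen telopeptide lysines, at 0.46 ± 0.10, and Sparc, a collagen-binding matrix protein, at -0.53 ± 0.14 (edgeR adjusted p = 0.0458). Against Sipa1l2-/- the double mutants had 2, beside 0.721%: Itga10 (0.99 ± 0.21) and Lox (-0.79 ± 0.17). Where none was called, the smallest p was that of Plod2 in Sipa1l2-/- against WT (0.32 ± 0.10, edgeR adjusted p = 0.839) and in the double mutants against C3-PMP22 (0.30 ± 0.10, edgeR adjusted p = 0.606), and of Mia3, which serves procollagen export, in the interaction (-0.22 ± 0.13, edgeR adjusted p = 0.700).

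Chains that share a helix or a fibril, and the 2 multiplexins, were compared over the 32 libraries in log2 CPM, for 12 pairs. Col4a1 and Col4a2 had r = 0.98 (rho = 0.957; r = 0.974 without the 2 libraries farthest on Col4a1), and Col6a1 and Col6a2 had r = 0.98 (0.97 without the 2 farthest). Col5a1 and Col5a2 had r = 0.89, Col1a1 and Col1a2 r = 0.81 (rho = 0.694; r = 0.614 without the 2 farthest), and Col15a1 and Col18a1, which are no partners, r = 0.63. Each of these pairs had an adjusted permutation p of 1.5e-05, from the smallest p that 100000 permutations give, except Col15a1 with Col18a1 at 0.000187. For Col8a1 and Col8a2 no correlation passed, with r = -0.0035 (rho = -0.0308, adjusted permutation p = 0.985). None passed for Col9a1 and Col9a2 either (r = -0.12, adjusted permutation p = 0.553), and Col9a1 did not pass the low-count filter. Col11a1 and Col11a2 had r = 0.15 (adjusted permutation p = 0.495), but r = 0.5341 in residuals from genotype and sex (adjusted permutation p = 0.0020) and 0.5870 with the muscle score also removed (adjusted permutation p = 0.000467). Library composition and the group differences enter each of these values. The type IV pair also shares its start and 22 bases of exon on opposite strands, beside exon lengths of 7464 bases (Col4a1) and 6619 bases (Col4a2). The part of reads from the shared bases in the correlation was not tested.

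Per length, the Col4a2 to Col4a1 ratio averaged 0.719 ± 0.0468 over WT libraries (SD, n = 7), 0.678 ± 0.0228 over Sipa1l2-/- (n = 9), 0.706 ± 0.0644 over C3-PMP22 (n = 8) and 0.679 ± 0.0518 over double mutants (n = 8), all within the spread. The Col8a2 to Col8a1 ratio averaged 0.465 ± 0.187 over WT libraries, 0.363 ± 0.127 over Sipa1l2-/-, 0.231 ± 0.0879 over C3-PMP22 and 0.209 ± 0.0897 over double mutants, so that both transgenic groups lay lower. The Col1a2 to Col1a1 ratio was 0.657 ± 0.109 in WT and 0.822 ± 0.0879 in C3-PMP22, and the Col5a3 to Col5a1 ratio 1.44 ± 0.199 in WT and 1.14 ± 0.226 in C3-PMP22. The ratios were not tested.

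**Figure D4:**
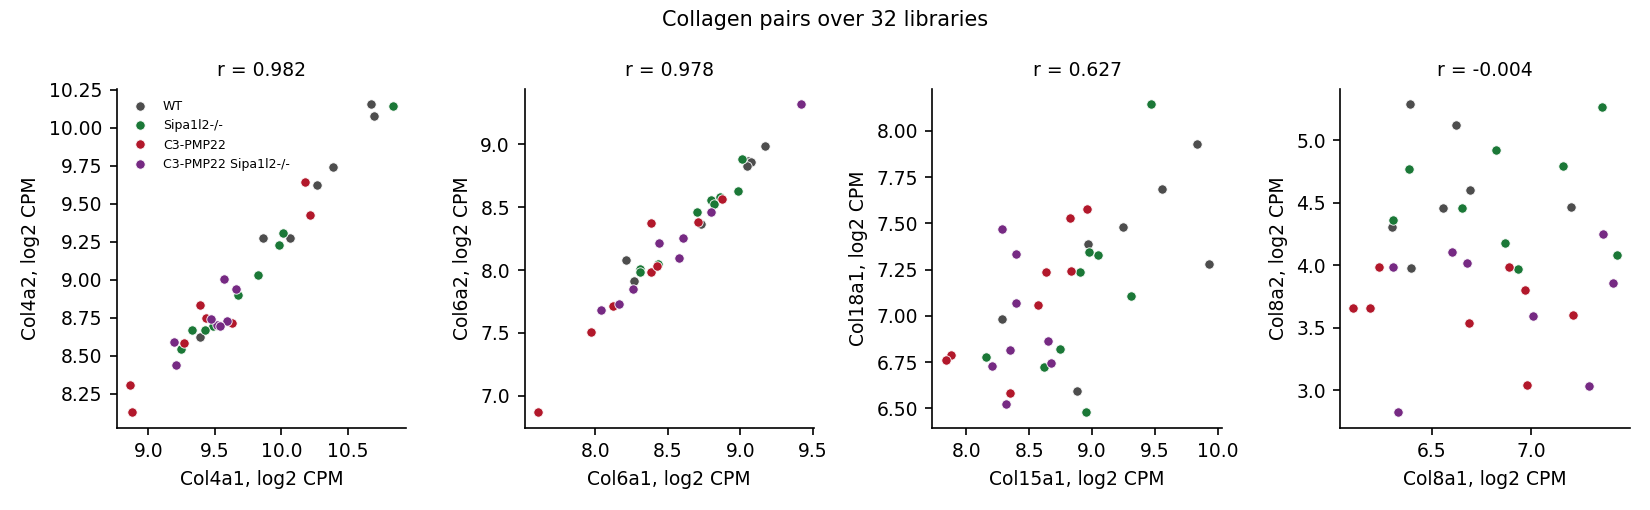
Log2 CPM of collagen pairs over the 32 libraries, coloured by genotype, with Pearson's r over each panel. The type IV pair lies on a line (r = 0.98), while Col8a1 and Col8a2 show no common trend (r = -0.0035).

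By labelled sex, Col18a1 and Col1a2 were higher in males, 2 of 41 collagens beside 207 of 15403 genes (1.34%). Col18a1, whose C-terminal fragment is endostatin, ran from 89.0 to 178 CPM in the 17 libraries labelled female (median 110) and from 110 to 282 in the 15 labelled male (median 161), a log2 fold change of 0.52 ± 0.11 (edgeR adjusted p = 0.0104). Col1a2 ran from 748 to 1517 CPM in females (median 1259) and from 1321 to 2109 in males (median 1527), with 0.34 ± 0.08 (edgeR adjusted p = 0.0351). The ranges overlapped in both genes. Among the marker lists, muscle markers were lower in males in 15 of 15 (median -0.77), adipocyte markers higher in 6 of 6 (median 0.40) and myelinating Schwann markers higher in 8 of 8 (median 0.34), none called.

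The other chains by sex were not called. They stood at 0.16 ± 0.12 for Col1a1, 0.16 ± 0.17 for Col3a1, 0.27 ± 0.09 for Col5a1, 0.36 ± 0.13 for Col5a3, 0.44 ± 0.14 for Col4a1 and 0.45 ± 0.14 for Col4a2. They were -0.05 ± 0.14 for Col6a1, 0.19 ± 0.16 for Col6a3, 0.17 ± 0.11 for Col12a1, -0.28 ± 0.13 for Col14a1 and 0.12 ± 0.14 for Col15a1. Col20a1 was at -0.27 ± 0.16 and Col28a1 at 0.37 ± 0.21. The median was 0.16 over the 41 collagens and -0.00 over all genes, with 10 of 11 fibrillar chains positive. From the pathway list, Plod2 was lower in males (-0.52 ± 0.07, edgeR adjusted p = 0.000108), and Sparc (0.44 ± 0.09), Lox (0.51 ± 0.12), Plod1, a lysyl hydroxylase (0.24 ± 0.06), and Ddr1, a collagen receptor kinase (0.34 ± 0.09), were higher. Col18a1 was called in all 32 fits that leave out 1 library and Col1a2 in 22, and 1 collagen was called without each of double mutants 3, 6 and 7, C3-PMP22 5, Sipa1l2-/- 1, 4 and 6, and WT 5, 6 and 7. Without C3-PMP22 7 and 8, Col18a1 had 0.50 ± 0.12 (edgeR adjusted p = 0.0285) and Col1a2 0.35 ± 0.09 (adjusted p = 0.0508). With the muscle score as a term neither was called, at 0.38 ± 0.11 (edgeR adjusted p = 0.118) and 0.27 ± 0.09 (adjusted p = 0.211). Neither was called in a single series, with Col18a1 at 0.56 ± 0.21 in the plain and 0.44 ± 0.15 in the G libraries and Col1a2 at 0.40 ± 0.16 and 0.45 ± 0.14. Neither was called with the first part of the column identifier as a term (Col18a1 0.29 ± 0.09, Col1a2 0.33 ± 0.11).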

How the data were processed

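Sciatic nerve mRNA was measured in 32 libraries. Per the labels' protocols, TRIzol and miRNeasy columns with DNase gave the RNA, and KAPA mRNA HyperPrep libraries were read in pairs. Per the submitters' processing notes, Trim Galore, FastQC and RSEM were used with GRCm38; no source used here gives versions or strandedness. The authors deposited expected counts by gene, whole numbers in the file and not scaled.

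Columns were matched to samples by the column letter in the labels. A total of 15403 genes passed filterByExpr by genotype (minimum count 10, minimum total 15). They were fitted with edgeR 4.0.16 (quasi-likelihood, TMM, R 4.3.3) with genotype and labelled sex on all 32 libraries, with Benjamini-Hochberg adjustment over all of them and a call under 0.05. DESeq2 1.42.0 was an alternative. The fit was also run on simulated counts with known changes, and the outcome is not given here. CPM use TMM-scaled totals. Correlations used 100000 permutations, two-sided. The median half-width of a 95% interval for C3-PMP22 against WT was 0.456 (log2) for collagens and 0.320 for all genes. Counts of chains whose exons overlap another gene are less certain. Among them are Col9a3 with Tcfl5 (234 bases), Col4a3 with C430014B12Rik (563 bases) and Col3a1 with Gm47302 (141 bases). Col5a1 overlaps Gm13372 (113 bases) and 2810430I11Rik (99 bases), and Col6a4 overlaps Gm47575 (162 bases) and Gm36993 (127 bases). Shorter overlaps are those of Col7a1 with Mir711 (36 bases), Col22a1 with Gm16308 (16 bases) and Col15a1 with Gm12426 (14 bases), among others.

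The members, the lists and the pooled contrast of transgenic with non-transgenic nerves were chosen with earlier results of these data known. Named chains were a panel of 15, every called collagen, or the 3 smallest p-values where none was called, and from the pathway list up to 6 called genes or the smallest p. Alternatives were the scaling, filter, model terms, marker scores, tool, replicate block and left-out libraries. The endothelial score, the first part of the column identifier, each number series alone and the interaction of transgene and series were added after seeing the data.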

Additional observations from a re-analysis of the deposited data

Results flagged for a closer look

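Within groups of 7 to 9 libraries, 80 sets of log2 CPM (20 chains in 4 groups) were searched for a single library far from the rest by Dixon's 95% criterion, and 6 were found, where chance gives about 4. Sipa1l2-/- 7 was the highest of 9 for Col4a1 at 10.84 and for Col4a2 at 10.14. C3-PMP22 3 was the lowest of 8 for Col3a1 at 8.86, and C3-PMP22 1 the highest of 8 for Col14a1 at 7.75. Double mutant 4 was the highest of 8 for Col1a1 at 10.32. WT 6 was the lowest of 7 for Col12a1 at 5.67.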

How the results depend on the processing

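Counts of collagens called moved by over 1.5 times as follows, and the causes were not tested. Here and in the fits that leave out libraries, most counts stand without the calls over all genes, so a move is not a result about collagens. The calls over all genes moved too. They went from 106 to 138 with DESeq2 size factors in C3-PMP22 against WT. With total counts they went from 213 to 118 in the double mutants against WT and from 512 to 404 in the pooled contrast. C3-PMP22 against WT (1) gave 5 with DESeq2, 2 with DESeq2 size factors in edgeR, 2 when genes averaging under 1 CPM were dropped, and 0 without C3-PMP22 7 and 8, with the endothelial score, with the first part of the column identifier as a term, or in the plain or the G series alone. The double mutants against WT (3) gave 5 with DESeq2, 5 in the G series alone 1 with total counts and 0 with the identifier term. Against Sipa1l2-/- (0) they gave 2 with DESeq2 and 1 with the adipocyte score. The pooled contrast (8) gave 4 without C3-PMP22 7 and 8, 3 with the endothelial score, 0 in the G and 2 in the plain series alone, 5 without the low-count filter, 5 without the sex term, 4 with total counts and 4 with the identifier term. Males against females (2) gave 1 without C3-PMP22 7 and 8, with the series as a term, without the filter or with total counts, and 0 with the muscle score, with the identifier term or in either series alone.

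Leaving out 1 library at a time, the counts ran from 0 to 5 for C3-PMP22 against WT, 0 to 5 for double mutants against WT, 0 to 1 for double mutants against Sipa1l2-/-, 4 to 8 for the pooled contrast and 1 to 3 for sex, and stayed at 0 in the other 3 comparisons. The correlation of Col8a1 with Col8a2 turned to 0.0272 without the 2 farthest libraries, 0.1013 and 0.1028 in residuals from genotype and sex without and with the muscle score, and 0.2027 with total counts. That of Col11a1 with Col11a2 passed in the residuals, at 0.5341 and, with the muscle score, 0.5870.

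Among pairs of libraries of different genotype, the 45 with the same sample number had correlations of -0.557 to 0.744 (median 0.0901), with 22 over 0.1. The 338 with different sample numbers had a median of -0.00205, with 135 over 0.1. Of the 32 libraries, 7 matched their own number best. Whether the sample numbers pair the libraries was not tested further. Among 30 pairs of libraries of different genotype that share the first part of the identifier, the median was 0.183 and 20 were over 0.1, beside 0.0463 in 163 pairs of the same series that do not. With the number as a replicate block, 2 collagens were called in C3-PMP22 against WT, 3 in double mutants against WT, 4 in the pooled contrast, 2 by sex and 0 elsewhere. These counts too are given without the calls over all genes. Low-abundance chains such as Col22a1 rest on few counts.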

Other observations

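Among WT nerves, Col4a2 ran from 394 to 619 CPM in the 3 plain and from 787 to 1139 in the 4 G libraries. This split was not tested, and how many of all genes split in the same way was not counted. The other type IV chains except Col4a1 overlapped between the series, with Col4a3 at 14.7 to 21.8 and 11.4 to 24.5 CPM, as did Col8a2 at 19.6 to 34.6 and 15.6 to 38.8. The adipocyte score of the same WT libraries was -0.53 to 0.69 in the plain and 1.04 to 1.48 in the G libraries, and its part in the split was not tested.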
